A study of Rattus norvegicus with 10 samples.

Results

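Gene expression in the left cortex of rats was compared between animals killed 3 hours after permanent middle cerebral artery occlusion (MCAO) with vehicle and animals killed 3 hours after sham surgery. The arrays were chosen by their sample titles, 3 for MCAO with vehicle and 4 for sham control, which is 7 of the 10 arrays of the series. The probe sets were chosen by having a single gene symbol, which kept 18511 of 36685. All animals were adult male Sprague-Dawley rats, with 1 array per animal. In the MCAO group a silicon-coated nylon filament closed the left middle cerebral artery at its base, and albumin in buffered saline was given as vehicle into the internal carotid artery just before. Sham rats had the same surgery without a filament in the internal carotid artery, and the sources used here do not say that they received vehicle. The other 3 arrays, from MCAO rats given neuregulin-1 (NRG1), entered the fit only for its estimate of spread.

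Occlusion of a cerebral artery deprives the cortex of oxygen and glucose, and ischemic neurons depolarize and release glutamate. Calcium entry then switches on immediate early genes, whose transcription needs no new protein, and activated microglia and vessel cells make chemokines. Heat shock, hypoxia and stress kinase programs follow in the same hours. The RNA came from a piece of cortex that holds neurons, glia, vessels and attached membranes, so fewer cells of a type and less RNA per cell cannot be told apart in any difference below.

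Values are deposited log2 signals that the authors made with robust multi-array averaging (RMA), so a difference of 1 is a 2-fold change. All differences are MCAO minus sham, given ± the standard error of the limma fit. The array medians were 6.11, 6.06, 6.06 and 6.05 in sham and 5.80, 5.82 and 6.12 in MCAO, so MCAO replicates 1 and 2 lay below every sham array and replicate 3 above them. Their difference of −0.16 had an exact two-sided permutation p of 0.286, where 3 arrays against 4 allow 0.0571 at the smallest. Calls are therefore given on the deposited values and after each array was centred on its own median, which raises each difference by 0.16. Differences and adjusted p-values are on deposited values unless stated. Sham replicate 1 stood apart from its group, correlating with the other sham arrays at r = 0.978 to 0.986 and with the MCAO arrays at 0.984 to 0.986. The other 3 sham arrays correlated with each other at 0.991 to 0.994 and with the MCAO arrays at 0.969 to 0.980. Signal at or under 4.64 was treated as near background, the level under which 95% of olfactory and vomeronasal receptor probe sets lay.

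A probe set was called at a Benjamini-Hochberg adjusted p under 0.05 in limma over all 18511. On the deposited values 203 probe sets were called higher in MCAO, 1.10% of those tested, and 1038 lower, 5.61%. After centring 407 were called higher, 2.20%, and 197 lower, 1.06%. The 2 scales shared 396 calls, 199 higher and 197 lower. At an unadjusted p under 0.05 on deposited values, 1014 were higher and 4363 lower. The 841 probe sets called lower on deposited values alone had a median difference of −0.68, beside −0.88 for those lower on both scales. The arrays of the 2 groups did not overlap for 508 probe sets higher in MCAO, 2.74%, and for 3304 lower, 17.8%.

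**Figure D1:**
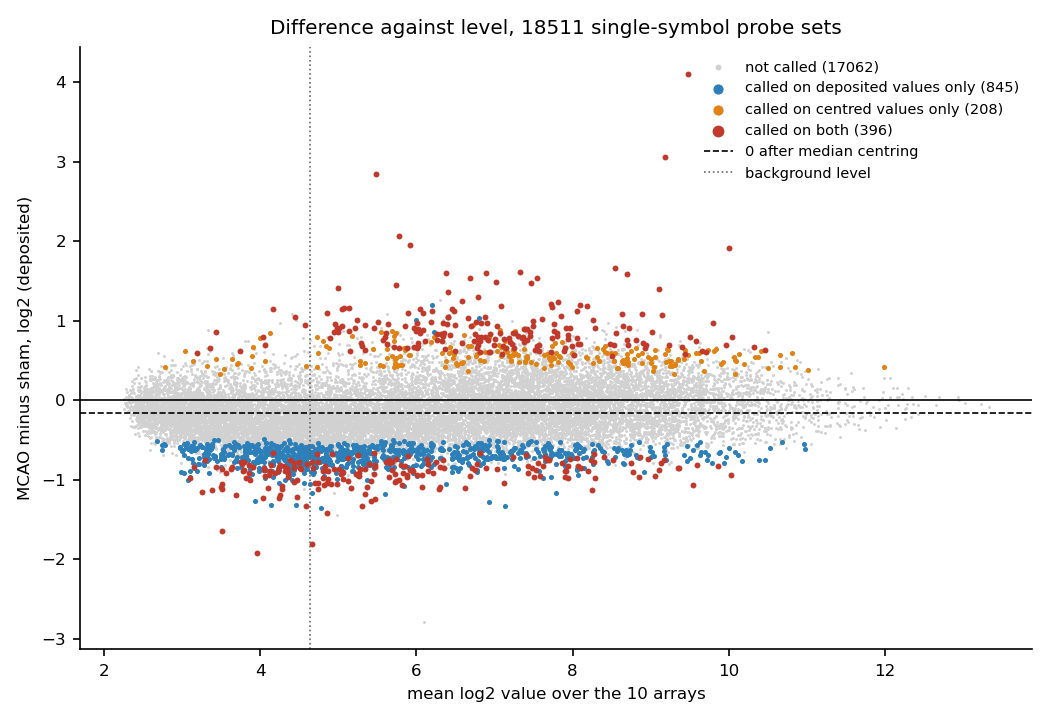
MCAO minus sham difference (log2, deposited) against the mean log2 value over 10 arrays for each of 18511 probe sets, colored by the scale on which it was called. Red points mark the 396 probe sets called on both scales, and Npas4 and Fos stand highest at 4.10 and 3.06.

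Calls depended on the signal level. With the probe sets in 5 equal bins of mean level, 10.3% were called lower on deposited values at levels of 3.86 to 5.20, against 2.97% above 8.04. Higher calls were 0.108% in the dimmest bin and at most 2.08% in any. Of the 197 probe sets lower on both scales, 84 were near background in a group, against 23 of the 199 higher. For a probe set near background the size of a fall is limited by the floor of the signal.

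The count of calls also depended on single arrays. Without sham replicate 1 there were 878 higher and 2479 lower on deposited values, and 1239 of the 1241 original calls were among them. Without MCAO replicate 3, the array with the highest median, there were 224 higher and 3359 lower. Leaving out any other sham or MCAO array left 22 to 46 higher and 79 to 159 lower. After centring the same fits left 8 to 16 higher and 5 or 6 lower, against 1831 and 1213 without sham replicate 1. The results below therefore lead with 63 probe sets, 15 higher and 48 lower, that were called on both scales and in each of the 10 fits with 1 array left out on deposited values. Of these, 10 higher and 20 lower were above background in both groups. After centring too, 7 higher and 2 lower were called in all 10 such fits.

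**Figure D2:**
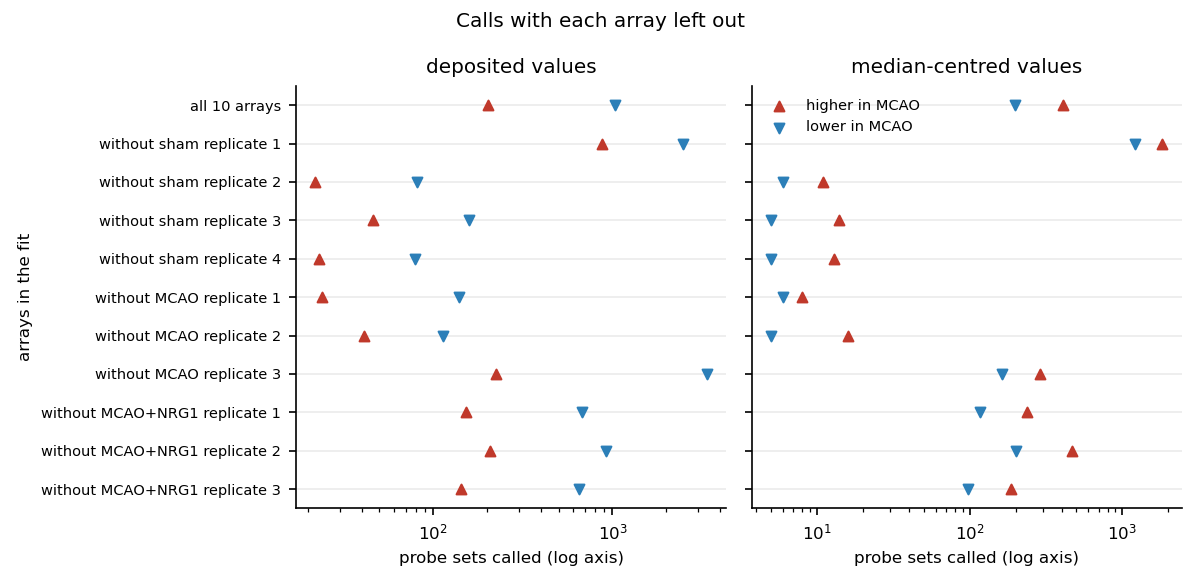
Number of probe sets called higher and lower in MCAO (log axis) with all 10 arrays and with each array left out, on deposited values (left) and median-centred values (right). Without sham replicate 1 the counts rise to 878 and 2479 on deposited values, and without any other sham array they fall to 22 to 46 and 79 to 159.

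The highest changes were in 2 genes of the early neuronal response. Npas4 encodes a transcription factor that is induced by calcium entry in neurons and shapes inhibitory synapses. It read 6.20, 6.65, 6.40 and 7.36 in sham and 11.70, 10.79 and 9.76 in MCAO. Every MCAO array lay well above the highest sham array, with the lowest of them in replicate 3. The difference was 4.10 ± 0.38 (adjusted p = 0.000167 in limma, and 0.002 after centring). Fos, a subunit of the AP-1 transcription factor, read 6.46, 6.99, 7.92 and 6.89 in sham and 10.44, 10.22 and 9.70 in MCAO. Sham replicate 3 was the highest of its group and still below each MCAO array, and the difference was 3.06 ± 0.30 (adjusted p = 0.000167, and 0.002 after centring). Both genes were called in all 10 left-out fits on both scales.

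Other named genes of neuronal activity rose with them. Rem2, a small GTPase that limits voltage-gated calcium channels, read 5.25 to 5.62 in sham and 6.79, 7.05 and 7.11 in MCAO, a difference of 1.60 ± 0.20 (adjusted p = 0.00166). Rgs2, which shortens G protein signaling, read 8.04, 7.77, 8.70 and 7.82 in sham and 9.67, 9.70 and 9.09 in MCAO. Sham replicate 3 was again the highest sham array and did not reach the MCAO arrays, with a difference of 1.40 ± 0.23 (adjusted p = 0.00805). Fbxo33, an F-box subunit of ubiquitin ligases, was tight within both groups, at 6.98 to 7.10 in sham and 7.79 to 8.16 in MCAO. Its difference of 0.95 ± 0.16 was smaller than those above but was called in all 10 left-out fits on both scales (adjusted p = 0.00924).

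Ptgs2, which encodes cyclooxygenase-2, the inducible enzyme of prostaglandin synthesis, read 8.52, 8.32, 9.35 and 8.35 in sham and 11.00, 10.51 and 10.13 in MCAO. The groups did not overlap, and sham replicate 3 was the nearest to the MCAO arrays. The difference was 1.91 ± 0.24 (adjusted p = 0.00193 in limma, and 0.00783 after centring). It was the single call among 17 measured prostaglandin synthesis and receptor genes on either scale, whose median was −0.13 beside −0.16 over all probe sets.

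Among the other genes higher in each left-out fit on deposited values were a scavenger receptor, a pair of chemokines and an innate immune receptor. Olr1, a scavenger receptor for oxidized low-density lipoprotein, was near background in sham, at 3.64 to 3.86, and read 7.13, 7.41 and 5.29 in MCAO. MCAO replicate 3 lay well below the other MCAO arrays but above every sham array, and the difference was 2.84 ± 0.35 (adjusted p = 0.00168). The chemokine gene Ccl3 read 4.08, 4.56, 5.16 and 4.77 in sham and 6.39, 7.49 and 5.89 in MCAO, a difference of 1.95 ± 0.33 (adjusted p = 0.00914). Ccl4, whose product shares a receptor with that of Ccl3, rose by 1.41 ± 0.23 from a sham level near background. Tlr13, a receptor that senses bacterial ribosomal RNA in the mouse, rose by 1.10 ± 0.18, also from near background.

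The remaining genes of this set have varied roles. Spag6l, related to a protein of the ciliary axoneme, read 4.69 to 5.09 in sham and 6.29 to 6.46 in MCAO, a difference of 1.46 ± 0.21. Coq10b, which encodes a mitochondrial coenzyme Q binding protein, rose by 1.21 ± 0.20 and Dtwd1 by 1.05 ± 0.17. Zng1a, a GTPase that delivers zinc to other proteins, rose by 0.96 ± 0.17. Or8h7b, annotated as an olfactory receptor gene, was the last of the 15, at 7.76 to 8.68 in sham and 9.55 to 10.19 in MCAO.

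**Figure D3:**
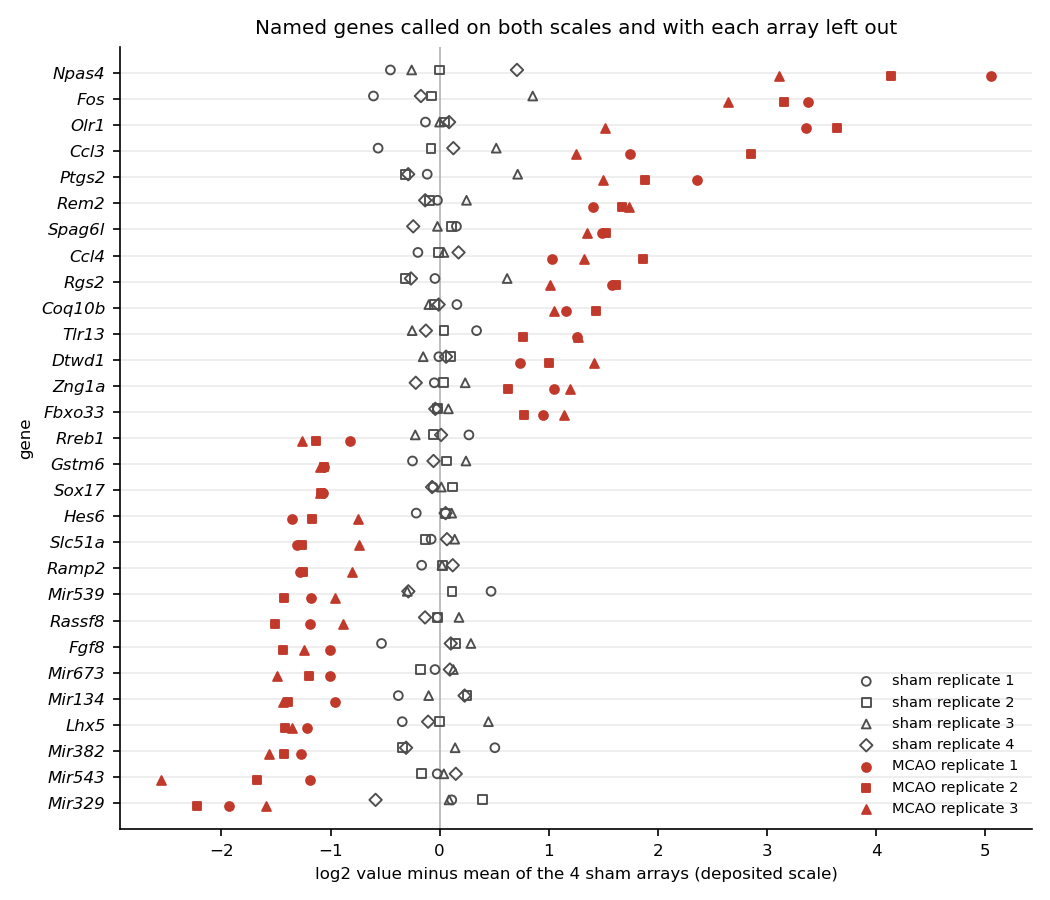
Value on each array minus the mean of the 4 sham arrays (log2, deposited) for 14 higher and 15 lower named genes. These were called on both scales and, on deposited values, with each array left out. Open symbols are sham and red symbols MCAO arrays, and no red symbol lies within the range of the open ones.

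Promoter sequence was available from RefSeq (GRCr8) for 17 of 23 genes called higher that were looked up, as 250 bases before and 50 after the annotated start. Fos, Jun, Ccl3, Ccl4, Nr4a3 and Ier3 were not in the table. Both strands were searched for the cAMP response element TGACGTCA, the AP-1 element TGANTCA, the CArG box bound by serum response factor, the NF-kB element and the heat shock element. The windows of Npas4, Rem2, Ptgs2 and 11 others held none of them. The 3 with a match are shown for the elements of the calcium and serum response, with the match in capitals, 5′ to 3′.
Olr1 promoter, GRCr8 chr4:164634498-164634797, minus strand: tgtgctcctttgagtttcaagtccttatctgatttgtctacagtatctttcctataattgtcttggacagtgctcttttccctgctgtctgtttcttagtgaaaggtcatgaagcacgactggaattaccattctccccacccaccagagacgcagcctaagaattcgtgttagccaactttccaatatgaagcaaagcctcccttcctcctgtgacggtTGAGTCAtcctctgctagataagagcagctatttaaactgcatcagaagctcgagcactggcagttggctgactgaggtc
Spag6l promoter, GRCr8 chr11:97677590-97677889, plus strand: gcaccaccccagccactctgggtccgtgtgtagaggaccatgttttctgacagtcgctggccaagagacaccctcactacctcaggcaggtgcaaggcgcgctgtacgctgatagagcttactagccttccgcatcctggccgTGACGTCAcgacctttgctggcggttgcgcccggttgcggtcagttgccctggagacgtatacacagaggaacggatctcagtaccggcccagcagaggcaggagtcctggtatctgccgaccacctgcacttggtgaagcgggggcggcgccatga
Egr2 promoter, GRCr8 chr20:21054392-21054691, minus strand: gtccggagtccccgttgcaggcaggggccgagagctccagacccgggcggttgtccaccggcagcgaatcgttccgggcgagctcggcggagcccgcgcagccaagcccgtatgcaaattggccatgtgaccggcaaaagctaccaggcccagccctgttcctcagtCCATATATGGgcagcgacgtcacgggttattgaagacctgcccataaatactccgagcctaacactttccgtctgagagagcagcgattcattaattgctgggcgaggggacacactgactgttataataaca
Olr1 held an AP-1 element with its first base at −30 from the start, which 7.33% of 27457 promoters in the table hold. Spag6l held a cAMP response element at −107, found in 1.91% of promoters, and Egr2 a CArG box at −83, found in 1.64%. The NF-kB element is found in 7.6% of promoters and the heat shock element in 0.736%. With all these elements searched in 17 windows, a few matches would be found at such shares alone. These are matches of letters and not shown binding sites. Motif shares over all genes called higher were not compared, since 77.8% of the protein-coding genes among them had a promoter in the table, under the 80% set as the minimum, against 83.0% of all measured ones.

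The early response genes were also described by lists, on deposited values unless stated. The lists hold genes already named above. Their members were chosen with earlier results of these data known, so the counts are description only. Over all probe sets 1.10% were called higher and 5.61% lower, or 2.20% and 1.06% after centring, and list counts are read beside these. Of 17 measured Egr, Nr4a and other early transcription factors, 6 were called higher and none lower, beside 1.10% of all probe sets called higher, with a median of 0.82. They were Npas4, Ier3, Nr4a3, Nr4a2, Egr2 and Nfil3. Of these, Ier3 is not a transcription factor, and its call is counted again in the mRNA decay and anti-proliferative list below. Nr4a2, an orphan nuclear receptor, read 8.79 to 9.37 in sham and 10.03 to 10.19 in MCAO, a difference of 0.97 ± 0.20 (adjusted p = 0.0173 in limma). Nr4a3 read 7.06, 7.13, 7.65 and 7.05 in sham and 8.97, 8.37 and 7.88 in MCAO, so that MCAO replicate 3 lay just above sham replicate 3. Ier3, a regulator of survival signaling, rose by 1.12 ± 0.21. Other members did not pass the test, with Egr1 at 0.27 ± 0.23 (adjusted p = 0.452) from a sham level of 10.7, and Egr3 at 0.15. The count was 6 without sham replicate 1 and 9 without MCAO replicate 3, and fell to 1 without MCAO replicate 1.

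Of 14 measured AP-1 transcription factor genes, 4 were called higher, beside 1.10% of all probe sets, and none lower. They were Fos, Jun, Fosb and Atf3. Jun read 7.91 to 8.17 in sham and 8.66, 9.18 and 9.07 in MCAO, a difference of 0.93 ± 0.18 (adjusted p = 0.0134). Fosb read 6.39, 6.89, 8.92 and 6.88 in sham and 9.06, 9.07 and 8.68 in MCAO. Sham replicate 3 thus overlapped the MCAO arrays for Fosb, and the difference was 1.66 ± 0.42 (adjusted p = 0.0326). Atf3, which is induced by many stresses, rose by 1.19 ± 0.32 on deposited values but was not called after centring (adjusted p = 0.0581). The list median was −0.07, and the other 10 members, among them Jund at −0.34 and Mafk at −0.04, were not called. The count of 4 fell to 1 without sham replicate 2 or without MCAO replicate 2.

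Sham replicate 3 had the highest median of both lists among the sham arrays, 0.36 above the sham mean for the Egr and Nr4a list and 0.23 for the AP-1 list. Sham replicate 1 had the lowest, at −0.19 and −0.25. In MCAO the Egr and Nr4a list stood at 0.64, 0.77 and 0.41, so replicate 3 was just above the highest sham array, and after centring it was at 0.36 against 0.37. On deposited values the AP-1 list stood close to 0, at 0.11 and at 0.17 in MCAO, all below sham replicate 3. After centring it stood at 0.27, 0.36 and 0.13, against 0.24 in that sham array. What set the level of these genes in single sham animals was not tested.

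Of 23 measured activity-induced effector genes of neurons, 7 were called higher, beside 1.10% of all probe sets, and 1 lower. The list median was 0.54. Besides Rem2, Rgs2 and Fbxo33 the higher ones included Inhba, which encodes a subunit of activin, at 5.33 to 6.0 in sham and 8.15, 7.56 and 6.36 in MCAO. Its difference was 1.60 ± 0.31 (adjusted p = 0.0139), with MCAO replicate 3 nearest to sham. Bdnf, the neurotrophin gene, read 5.53 to 6.01 in sham and 7.20, 7.20 and 6.26 in MCAO, a difference of 1.03 ± 0.21. Arc, a gene of synaptic plasticity, had a difference of 0.72 and was not called (adjusted p = 0.111). The count was 10 without MCAO replicate 3 and 3 without sham replicate 4, MCAO replicate 1 or MCAO replicate 2. Of 17 MAP kinase phosphatase and Sprouty genes, Dusp6, a phosphatase of ERK, rose by 0.91 ± 0.17 on deposited values and was also called after centring. Dusp8 was lower by −0.55 ± 0.15 on deposited values alone.

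Of 28 measured chemokine and cytokine genes, 4 were called higher on both scales, Ccl4, Ccl3, Il1a and Ccl2, and none lower. Of all probe sets 1.10% were called higher on deposited values and 2.20% after centring. Ccl2, which draws monocytes, read 4.09, 4.65, 4.88 and 4.62 in sham and 6.38, 8.18 and 5.33 in MCAO. The MCAO arrays spread widely, with replicate 2 highest and none within the sham range, and the difference was 2.07 ± 0.48 (adjusted p = 0.0268). Il1a, an interleukin-1 gene, was near background in sham and rose by 1.15 ± 0.23. Il1b at 0.44, Il6 at 0.04 and Tnf at 0.02 were not called. The count of 4 fell to 2 without sham replicate 2, sham replicate 4, MCAO replicate 1 or MCAO replicate 2, leaving Ccl3 and Ccl4.

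Of 17 NF-kB subunits and inhibitors, Rel, a subunit, rose by 0.66 ± 0.16 and Nfkbid, a nuclear inhibitor, by 0.68 ± 0.18, while Rela at −0.01 and Nfkbia at −0.18 were not called. Birc3 and Peli1 were called higher after centring alone. The count of 2 was 4 without sham replicate 1 and 0 without any other single sham array or without MCAO replicate 1 or 2. Markers of neutrophils, which carry many inflammatory transcripts, gave no higher call. Of 14 measured, 3 were above background and Camp was lower by −0.81 on deposited values alone. Their summed level (log2) lay between 8.11 and 8.41 in sham and between 8.07 and 8.25 in MCAO, and S100a9 at 0.32 and S100a8 at 0.20 were not called. Markers of microglia and macrophages, a source of chemokines, had 0 of 16 called, a median of −0.25 and summed levels of 10.48, 10.76 and 11.21 in MCAO around a sham range of 11.02 to 11.12.

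Genes that report stress and low oxygen moved in part. Of 30 hypoxia-inducible genes, 3 were called higher, Stc1, P4ha1 and Vegfa. Stc1, a secreted calcium and phosphate regulator, read 5.42 to 5.58 in sham and 7.26, 7.13 and 6.25 in MCAO, a difference of 1.36 ± 0.24 (adjusted p = 0.0115 in limma). P4ha1, a collagen prolyl hydroxylase subunit, rose by 1.01 ± 0.19 and Vegfa, the vessel growth factor, by 0.71 ± 0.19, with MCAO replicate 3 highest at 8.95. Ddit4, an inhibitor of mTOR signaling often induced by hypoxia, was lower by −0.73 ± 0.18 on deposited values and not called after centring. Its arrays read 8.20 to 8.53 in sham and 7.29, 7.77 and 7.83 in MCAO, without overlap. None of 11 glycolytic enzyme genes was called on either scale, with a median of −0.17 against −0.16 over all probe sets.

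Of 23 heat shock proteins and co-chaperones, Dnajb4 rose by 0.91 ± 0.19 and Dnaja1 by 0.63 ± 0.15, both partners of Hsp70 and both also called after centring. Hsph1, Dnajb5 and Hspa4l were called higher after centring alone, and the list median was 0.28. The count of 2 rose to 9 without sham replicate 1 and fell to 0 without any other single sham array or without MCAO replicate 1 or 2. Of 24 integrated stress and unfolded protein response genes, Ppp1r15a, which restores translation after stress, rose by 0.97 ± 0.19 and Ddit3 by 0.66 ± 0.18. Among 15 growth arrest genes, Gadd45g read 5.83 to 6.11 in sham and 8.13, 7.89 and 6.73 in MCAO. Its difference was 1.61 ± 0.35 (adjusted p = 0.0206), and Gadd45b rose by 1.06 ± 0.24. Ier3, Cnot6 and Btg1 were called higher among 13 mRNA decay and anti-proliferative genes, with a list median of 0.40. That count of 3 was 5 without sham replicate 1 and 0 without MCAO replicate 1 or 2, and Btg1 was called in 1 of the 10 left-out fits. The 3 higher hypoxia genes, 2 stress response genes and 2 growth arrest genes became 5, 3 and 5 without sham replicate 1, and 1, 0 and 0 without sham replicate 2 or without MCAO replicate 2. Ddit3 kept its call in 1 of the 10 fits.

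Srsf7, Clk1 and Clk4, which belong to the SR splicing factors and the kinases that phosphorylate them, were higher among 18 measured. Clk1 read 7.62, 6.70, 6.33 and 7.09 in sham and 8.54, 8.43 and 7.36 in MCAO, so that sham replicate 1 lay above MCAO replicate 3. The difference was 1.17 ± 0.29 (adjusted p = 0.0306), and the count of 3 was 7 without sham replicate 1 and 0 without any other single sham array or without MCAO replicate 1 or 2. Idi1, of the isoprenoid pathway, read 7.84, 6.73, 6.80 and 6.85 in sham and 8.63, 8.23 and 8.02 in MCAO, with sham replicate 1 well above its group. Its difference was 1.24 ± 0.28, and it was the single call among 19 sterol genes on deposited values.

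**Figure D4:**
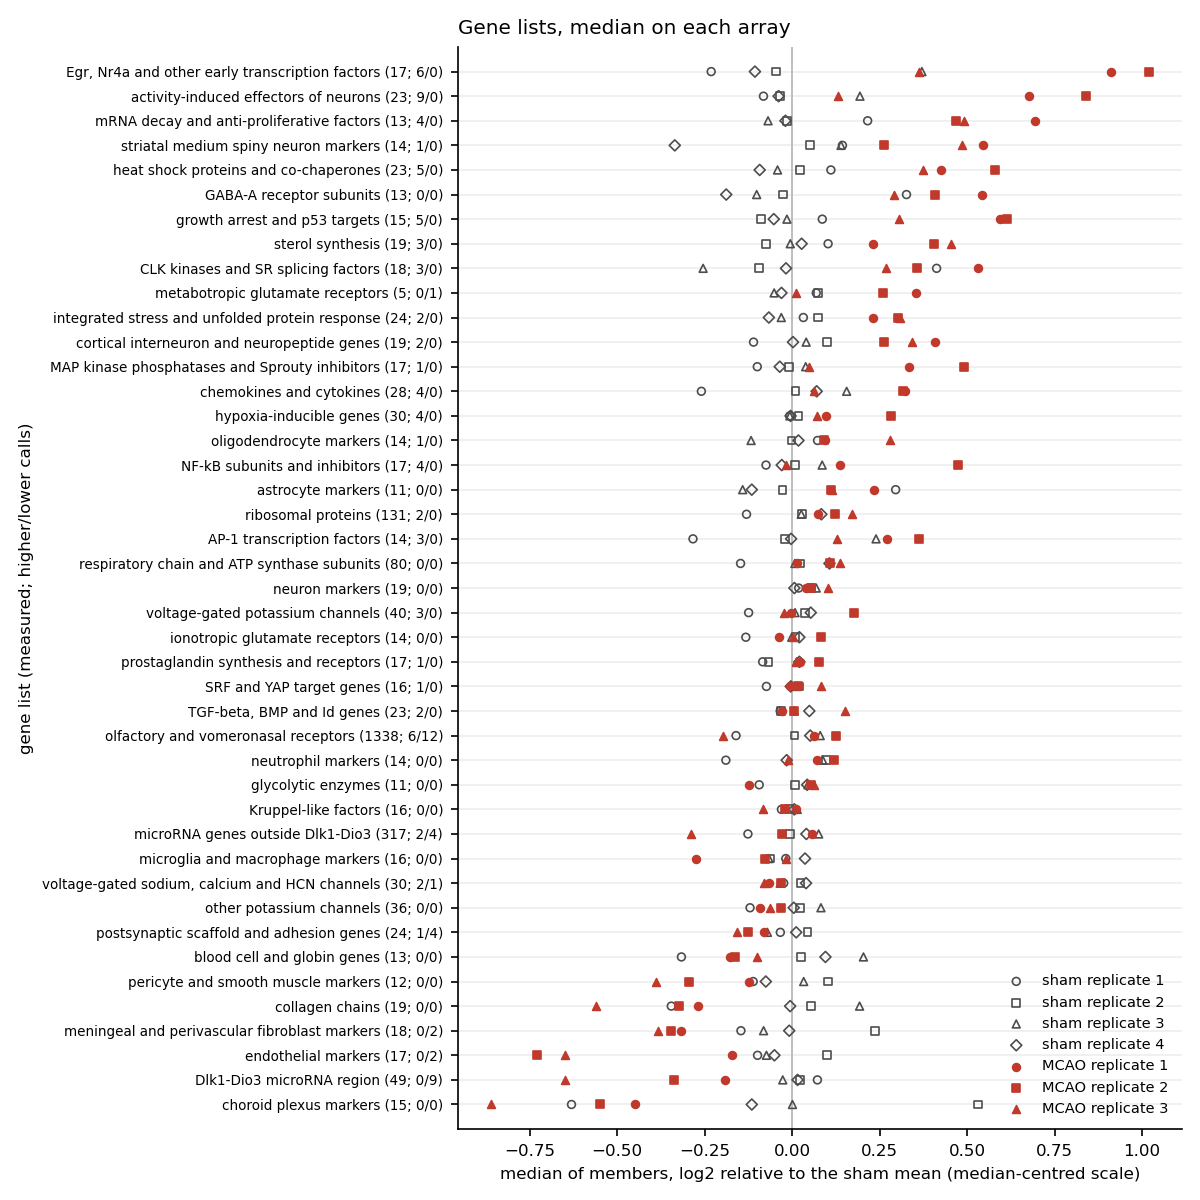
Median of the members of each gene list on each array, relative to the sham mean (log2, median-centred values). Numbers in parentheses are measured members and calls higher and lower after centring, and the Egr and Nr4a list and the activity-induced effectors stand highest, the choroid plexus, Dlk1-Dio3 and endothelial lists lowest.

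Among called probe sets, the largest falls were in microRNA genes. MicroRNAs are short RNAs that pair through their seed, bases 2 to 8, with messenger RNAs and lower their output, and the Dlk1-Dio3 region is an imprinted locus whose maternal copy carries a large cluster of them that neurons express. Probe sets for a microRNA gene detect RNA of its locus, and precursor and mature forms cannot be told apart. Of 363 measured microRNA genes, 40 were called lower on deposited values, 11.0% against 5.61% of all probe sets, and none higher. Most were dim, with 12 of the region's 49 measured genes and 77 of 317 microRNA genes outside it above background. Over all probe sets, 10.3% were called lower at levels of 3.86 to 5.20 and 4.00% below that. The part of signal level in the 11.0% was not tested. After centring 13 were lower and 2 higher.

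In the Dlk1-Dio3 region, 46 microRNA genes at GRCr8 chr6:134298084-134579838 were measured. Of these, 17 were called lower on deposited values and 9 after centring, none was called higher, and 43 had a difference below 0. The median was −0.57 on deposited values and −0.41 after centring, beside −0.16 and −0.005 over all probe sets. The groups did not overlap, lower in MCAO, for 29 of them, beside 17.8% of all probe sets. Of these genes, 6 were called in every left-out fit on deposited values. After centring, Mir329 was called in all 10 such fits, Mir543, Mir382 and Mir673 in 6, Mir539 in 5 and Mir134 in 4. These 6 genes are shown by both mature sequences from RefSeq, 5′ to 3′ with the seed in capitals, so that their seeds can be compared.
rno-miR-329-5p: aGAGGUUUucugggucucuguuuc
rno-miR-329-3p: aACACACCcagcuaaccuuuuu
rno-miR-543-5p: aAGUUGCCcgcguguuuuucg
rno-miR-543-3p: aAACAUUCgcggugcacuucu
rno-miR-382-5p: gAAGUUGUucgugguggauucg
rno-miR-382-3p: aAUCAUUCacggacaacacuu
rno-miR-134-5p: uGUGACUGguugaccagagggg
rno-miR-134-3p: cUGUGGGCcaccuagucaccaa
rno-miR-673-5p: cUCACAGCuccgguccuuggag
rno-miR-673-3p: uCCGGGACugaguucugugcac
rno-miR-539-5p: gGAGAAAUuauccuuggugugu
rno-miR-539-3p: cAUACAAGgguaauuucuuuuc
No seed was shared between any of the 40 microRNA genes called lower, over their 73 mature sequences, although 5 seeds are shared within the region. The seed of rno-miR-539-3p is one of the shared ones, with rno-miR-381-3p, whose gene Mir381 had a difference of −0.22 and was not called.

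Mir329 read 5.33, 5.61, 5.31 and 4.64 in sham and 3.29, 3.00 and 3.64 in MCAO. All MCAO arrays were near background and below the lowest sham array, and the difference was −1.92 ± 0.23 (adjusted p = 0.00165 in limma, and 0.00441 after centring). Mir543 read 5.56 to 5.87 in sham and 4.53, 4.05 and 3.17 in MCAO, a difference of −1.80 ± 0.24 (adjusted p = 0.00265). Mir134, known for limiting dendritic spine size, stayed above background in both groups, at 5.78, 6.41, 6.05 and 6.38 in sham and 5.19, 4.77 and 4.72 in MCAO. Its groups did not overlap and the difference was −1.26 ± 0.20 (adjusted p = 0.00717, and 0.0278 after centring). Mir540, the brightest of the 9, read 7.06 to 7.57 in sham and 6.33, 5.87 and 6.55 in MCAO. It was called in 9 of the 10 left-out fits, with a difference of −1.10 ± 0.20.

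The falls were spread along the region rather than even. Neighbours of called genes were close to 0 in places, such as Mir666 at −0.12 directly before Mir543 and Mir136 at 0.15. Of the 46 genes 18 were above background in sham and 7 in MCAO. Genes near background in sham were both uncalled, such as Mir136 and Mir376c at 0.11, and called lower, such as Mir539, Mir380 at −1.12 and Mir323 at −0.89. Mir409 and Mir3581, called lower on deposited values, overlap in position. Meg3, of the same region, was lower on deposited values at −0.83 ± 0.20 (adjusted p = 0.0283 in limma) and not called after centring (0.0884). The protein genes Dlk1 at −0.75 and Dio3 at −0.31 were not called. The 18 lower calls of the region's 49 measured genes were 21 without sham replicate 1 and 7 without sham replicate 2 or MCAO replicate 2.

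**Figure D5:**
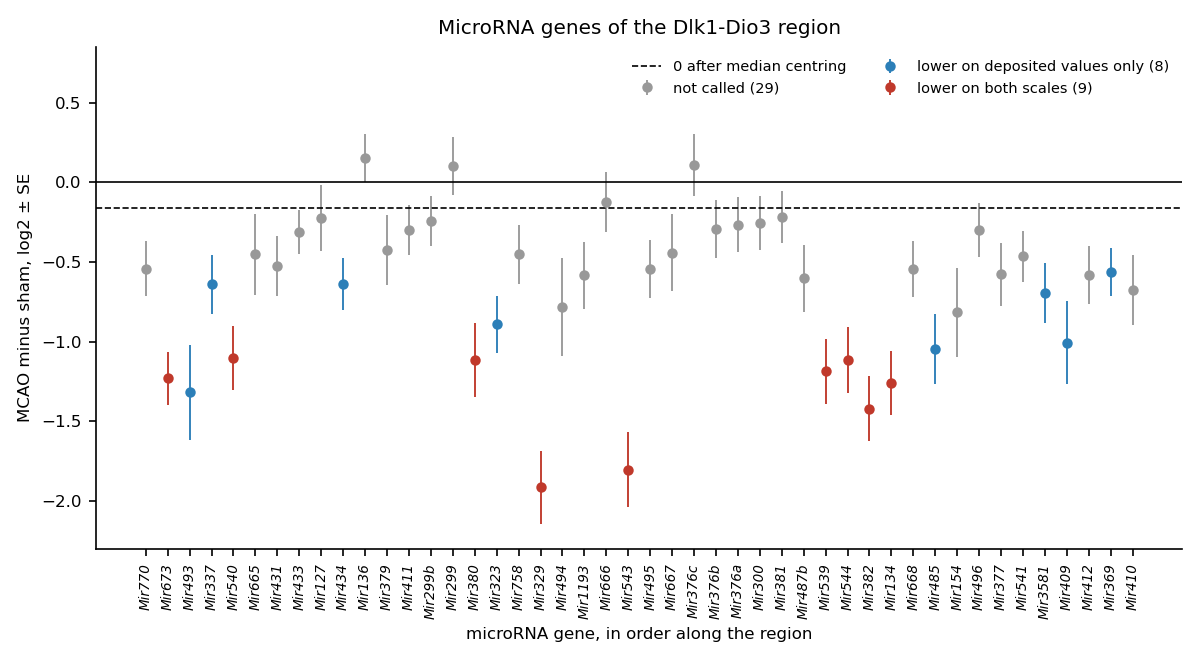
MCAO minus sham difference (log2, deposited, ± SE) for 46 microRNA genes of the Dlk1-Dio3 region in order along the chromosome, colored by the scales on which they were called lower. The 9 red points lie between −1.92 and −1.10, and 3 genes lie above 0.

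Outside the region 23 of 317 microRNA genes were lower on deposited values, near the 5.61% of all probe sets, and 4 after centring, near 1.06%. The 4 were Mir23b, Mir27b, Mir2964 and Mir628. Mir23b and Mir27b lie next to each other on chromosome 17 and are known in endothelium. Mir23b read 6.49 to 6.86 in sham and 5.96, 5.36 and 5.76 in MCAO, without overlap, a difference of −0.94 ± 0.17 (adjusted p = 0.0127). Mir27b fell by 1.22 ± 0.25 on the log2 scale. The count of 23 was 57 without sham replicate 1 and 3 without sham replicate 4 or MCAO replicate 2. Mir98, which has the let-7 seed, was called higher after centring alone, by 0.97 ± 0.23 (adjusted p = 0.0411 in limma). Its deposited values overlapped, with MCAO replicate 3 at 6.59 and the other MCAO arrays within the sham range.

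Some markers of vessels and their sheaths were lower. Of 17 endothelial markers, 5 were called lower on deposited values, beside 5.61% of all probe sets, and 2 after centring, with a median of −0.57. Sox17, a transcription factor of arterial endothelium, read 5.96, 6.13, 6.03 and 5.95 in sham and 4.94, 4.93 and 4.92 in MCAO. Both groups were tight and did not overlap, and the difference was −1.09 ± 0.15 (adjusted p = 0.00346 in limma, and 0.0201 after centring). Mmrn2, an endothelial matrix protein, fell by 0.88 ± 0.18 and was also called after centring. Vwf at −1.05 ± 0.25, Tie1 at −0.77 and Ocln at −0.77 were lower on deposited values alone. The junction genes Cldn5 at −0.72 and Cdh5 at −0.43 were not called. Ramp2, which makes the calcitonin receptor-like receptor respond to adrenomedullin, read 6.75 to 7.04 in sham and 5.64, 5.66 and 6.11 in MCAO. It was not on the list and had a difference of −1.11 ± 0.16, called in each left-out fit on deposited values.

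The summed level of the endothelial markers (log2) lay between 10.81 and 11.01 in sham arrays and between 10.11 and 10.64 in MCAO arrays, without overlap. That of pericyte and smooth muscle markers did not overlap either, at 10.57 or more in sham and 10.33 or less in MCAO, with Notch3, Vtn and Pdgfrb lower among 12 on deposited values and none after centring. Of 18 meningeal and perivascular fibroblast markers, 7 were lower on deposited values, beside 5.61% of all probe sets, and Igf2 and Prelp on both. The list median was −0.55. Prelp, a matrix protein, read 8.84 to 9.16 in sham and 7.64, 7.23 and 8.64 in MCAO, a difference of −1.13 ± 0.24 (adjusted p = 0.0202). Of 19 collagen chains, 6 were lower on deposited values and none after centring, Col1a2 by −1.32 ± 0.29 and Col1a1 by −0.82 ± 0.19.

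These counts rested on single arrays. The 3 pericyte and smooth muscle calls were 0 without sham replicate 2, 3 or 4 or without MCAO replicate 1 or 2. The 5 endothelial calls were 6 without sham replicate 1 and 1, Sox17, without sham replicate 2, sham replicate 4, MCAO replicate 1 or MCAO replicate 2. The 7 fibroblast and 6 collagen calls were 10 and 14 without sham replicate 1, and both were 0 without sham replicate 2. Choroid plexus markers, from tissue that the cortex lacks, moved between sham arrays as well. Relative to the sham mean, their median was −0.59, 0.52, −0.01 and −0.13 in the 4 sham arrays and −0.72, −0.80 and −0.81 in MCAO, and 1 of 15, Prlr, was lower. That count was 11 without sham replicate 1 and 0 without sham replicate 2 or 3. Ttr, their most abundant gene in that tissue, had a difference of −2.78 that was not called (adjusted p = 0.0677). Blood cell and globin genes, a measure of retained blood, had 1 of 13 called lower, Rhd, with a summed level of 9.87, 10.63, 10.74 and 10.67 in sham and 9.66, 9.88 and 10.33 in MCAO. The part of attached membranes, vessels or blood in the lower calls was not tested.

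Genes of synapses fell in part while markers of neurons did not pass the test. Of 24 postsynaptic scaffold and adhesion genes, 7 were lower on deposited values, beside 5.61% of all probe sets. On both scales 4 were lower, Lingo1, Dlgap3, Iqsec2 and Nlgn2. Lingo1, a membrane protein that limits axon growth and myelination, averaged 9.85 ± 0.11 (SD, n = 4) in sham, with 9.73 the lowest array, and read 8.99, 8.90 and 9.12 in MCAO. The groups did not overlap and lay far above background, with a difference of −0.85 ± 0.14 (adjusted p = 0.00939). Dlgap3, a scaffold of excitatory synapses, read 9.50 to 9.81 in sham and 8.40, 8.70 and 9.07 in MCAO, a difference of −0.95 ± 0.17. Nlgn2, an adhesion protein of inhibitory synapses, fell by 0.74 ± 0.15 and Iqsec2 by 0.71 ± 0.14, on the log2 scale. Lrrtm2, an adhesion protein of excitatory synapses, was called higher after centring alone, by 0.79. The count of 7 lower was 10 without MCAO replicate 3 and 1 without MCAO replicate 1.

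None of 19 neuron markers was called, with a median of −0.08 and a summed level of 15.49 to 15.60 in sham and 15.34, 15.40 and 15.70 in MCAO. None of 11 astrocyte markers was called either, and Ermn was the single higher call of 14 oligodendrocyte markers. The call of Ermn was lost without sham replicate 2, 3 or 4, without any single MCAO array or without MCAO+NRG1 replicate 1 or 3. Snap25 at 0.04, Rbfox3 at −0.08, Gfap at −0.15 and Slc1a2 at 0.04 were far above background in both groups, as the label of cortex requires. Markers of striatal medium spiny neurons, which lie under the cortex, had a median of 0.29 with Tac1 called at 0.84 ± 0.24. The call of Tac1 was lost without sham replicate 2, 3 or 4, without any single MCAO array or without MCAO+NRG1 replicate 3. Sham replicate 1 overlapped MCAO for Tac1, and the summed levels of the list overlapped, with 12.41 to 12.74 in sham arrays against 12.71 to 13.13 in MCAO arrays. The depth of dissection was not tested.

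The 6 receptor and channel lists gave 0 to 2 lower calls each, beside 5.61% of all probe sets. Each of these lower counts was 0 without sham replicate 2, 3 or 4 or without MCAO replicate 1. Grm2, a presynaptic metabotropic glutamate receptor, read 8.33 to 8.79 in sham and 7.41, 7.94 and 7.98 in MCAO, and fell by 0.86 ± 0.18 on deposited values (adjusted p = 0.0188, and 0.0429 after centring). Hcn3, a pacemaker channel subunit, read 6.56 to 6.86 in sham and 5.72, 6.09 and 5.94 in MCAO, and fell by 0.77 ± 0.15. Grik5, a kainate receptor subunit, was lower by −0.72 on deposited values alone, and none of 13 GABA-A receptor subunits was called. Among 40 voltage-gated potassium channel genes, Kcne4 rose by 0.94 ± 0.19 and Kcnv2 was lower on deposited values alone, both from near background in sham. Among 36 other potassium channel genes, Kcnk12 at −0.62 and Kcnk3 at −0.56 were lower on deposited values alone. Among the neuropeptides, Nts, the neurotensin gene, read 6.67, 5.46, 5.77 and 5.05 in sham and 7.20, 7.76 and 6.87 in MCAO. Sham replicate 1 came close to the MCAO arrays, and the difference was 1.54 ± 0.34 (adjusted p = 0.0211). Sst, the somatostatin gene, was lower by −0.65 ± 0.17 on deposited values and not called after centring. The calls of Nts and Sst were lost without sham replicate 2, 3 or 4 or without MCAO replicate 1 or 2.

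Further named genes were lower in each left-out fit on deposited values. Rreb1, a zinc finger protein of Ras signaling, read 6.18 to 6.67 in sham and 5.58, 5.27 and 5.14 in MCAO, a difference of −1.07 ± 0.17 (adjusted p = 0.00708). Hes6, which opposes Hes repressors and favors neuronal differentiation, read 6.61 to 6.93 in sham and 5.46, 5.65 and 6.07 in MCAO, a difference of −1.09 ± 0.18. Both lay above background in every group. Lhx5 at −1.33, Fgf8 at −1.23, Rassf8 at −1.19, Slc51a at −1.10 and Gstm6 at −1.07 ended near background in MCAO. Cdk5r2, an activator of the neuronal kinase Cdk5, falls outside the rule for named genes and was picked after its values were seen, as the brightest of the 48. It read 9.84, 10.26, 10.35 and 10.44 in sham and 8.94, 9.12 and 9.42 in MCAO, a difference of −1.06 ± 0.18 (adjusted p = 0.00993).

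Of 11 measured genes that the study followed by other assays or that encode neuregulin-1 and its receptors, none was called on either scale. On deposited values 3 were called lower without sham replicate 1, and 3 without MCAO replicate 3. Kcnh2, a potassium channel gene, came nearest at −0.57 ± 0.18 (adjusted p = 0.0598 on deposited values and 0.162 after centring). Nrg1 read 5.79 to 5.95 in sham and 5.89 to 5.98 in MCAO, and its receptor gene Erbb4 had a difference of 0.13 ± 0.17. The transcription factor gene Ets1 had a difference of −0.21 ± 0.17 and Irs1, an adaptor of insulin signaling, −0.19 ± 0.21. Of these genes Kcnh2, Kcnh6, Erbb2 and Pou6f1 had groups that did not overlap, lower in MCAO, where 17.8% of all probe sets did. Ribosomal protein genes had 1 of 131 called in each direction and respiratory chain genes 2 of 80 lower, medians of −0.05 and −0.08.

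Genes of the lists that are named above without a call, such as Egr1, Arc, Il6, Cldn5 and Ttr, and called members beyond the 4 of smallest p in a list, such as Egr2 and Bdnf, were picked after their values were seen.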

How the data were processed

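RNA from the left hemi-cortex of 10 rats, 1 array each, was measured on Affymetrix Rat Gene 2.0 ST arrays. The deposited values are log2 signals that the authors made from the probe intensities by RMA in the oligo package, whose versions are not given in the sources used here, nor is whether all arrays were normalized together. Arrays have no read depth, so the number of animals limits precision, and p-values measure the spread between these animals. Of 36685 probe sets, 18511 carried 1 gene symbol in the platform annotation, 575 several and 17599 none, and the first kind was analysed. No column of per-sample values was left unused.

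The 3 groups were fitted in 1 model in limma 3.58.1 (R 4.3.3) with lmFit and eBayes, and the MCAO minus sham contrast was adjusted by Benjamini-Hochberg over all 18511 probe sets, on deposited values and after subtracting each array median. The test was tried on simulated data with 18511 probe sets for this contrast. It recovered 68% of differences of 1 and 7% of differences of 0.5 on the log2 scale. The simulated noise was independent between arrays and probe sets, without the shifts of whole arrays seen here. These rates therefore do not measure recovery in the real comparison.

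Named genes were first up to 15 per direction among probe sets called on both scales and in all 10 left-out fits on deposited values. These had the largest differences, with receptor, pseudogene and provisional symbols left out. To them were added up to 4 called members of smallest p in each list, or 1 where none was called. All measured genes that the study followed by other assays, with neuregulin-1 and its receptors, and every called microRNA gene were added too. Members and lists were chosen with earlier results of these data known. A summed level is the log2 of the sum of the linear signals of a list. Alternatives were quantile normalization, a filter against dim signals, a test over all 36685 probe sets or over the brightest of each gene, trend and robust variance, array weights, fitting only the 7 arrays compared, a replicate block and leaving out each array. Promoter and microRNA sequences and positions came from RefSeq (GRCr8).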

Additional observations from a re-analysis of the deposited data

Results flagged for a closer look

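Of 171 sham groups of named genes tested, 14 held 1 array far from the other 3. The cut-off would flag about 1 in 20 independent groups, but these genes share the same 4 arrays. Most were also picked by p-values from the same data, so the count is not set against that rate. Values below are the gap to the nearest other array as a share of the range of the group. Sham replicate 1 was the high array for P4ha1 (0.968), Msmo1 (0.965), Idi1 (0.893) and Tac1 (0.829), and the low array for Pfkl (0.885), Tubb3 (0.853), Mir9-3 (0.837), Mir501 (0.832) and Mir3596b (0.83). Sham replicate 3 was the high array for Nr4a3 (0.859) and Fbxo33 (0.83) and the low array for Bmp3 (0.867) and Mir369 (0.859). Sham replicate 4 was the high array for Mir511 (0.846).

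When all 36685 probe sets were tested together, 36 of those without a single gene symbol were called higher in MCAO on deposited values and 120 lower. None of them enters a comparison above.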

How the results depend on the processing

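Counts are given as higher and lower in MCAO. On deposited values they were 396 and 346 after quantile normalization, 61 and 246 with all probe sets tested, 1006 and 6114 with array weights, 104 and 405 with only the sham and MCAO arrays, and 56 and 176 with the replicate block. Quantile normalization started from the deposited values and was fitted once, so it has no separate counts after centring. After centring the counts were 622 higher with dim probe sets left out, 710 and 305 with trend and robust variance, and 31 and 8 with all probe sets. They were 2146 and 1622 with array weights, 117 and 50 with only the sham and MCAO arrays, and 33 and 6 with the replicate block. Calls shared by both scales were 30 and 8 with all probe sets, 990 and 1622 with array weights, 74 and 50 with only the sham and MCAO arrays, 32 and 6 with the replicate block, and 305 lower with trend and robust variance. Leaving out 1 array gave 22 to 878 higher and 79 to 3359 lower on deposited values, 8 to 1831 and 5 to 1213 after centring, and 8 to 878 and 5 to 1213 on both scales. The cause of these changes was not tested. Same-numbered sham and MCAO arrays deviated together at r = 0.147, 0.0573 and −0.112, and differently numbered ones at −0.237 to 0.206. So few and weak correlations cannot tell whether the numbers pair the animals. The block sets aside sham replicate 4, which has no partner. Not all of the 171 named genes had a call to lose, and 27 without one gained it with array weights. After quantile normalization 50 lost their call, as did 90 with all probe sets tested and 56 after centring. With only the sham and MCAO arrays 40 lost it, and with the replicate block 69. Between 74 and 94 lost it without sham replicate 2, 3 or 4 or MCAO replicate 1 or 2. In these settings 3 of the 171 changed sign, none of them called. Ets1 was at 0.0334 after quantile normalization, Erbb3 at 0.067 after centring, and Nrg1 at −0.00167 both with the replicate block and without sham replicate 4, within a range of −0.00167 to 0.0508 over the fits with 1 array left out.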
